A study of Mus musculus with 42 samples.

Results

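The transcription factors described here are 9 genes, Jun, Junb and Jund of the Jun family, Fos, Fosb, Fosl1 and Fosl2 of the Fos family, and Egr1 and Atf3. They were chosen by name, as the probes annotated with 1 of these symbols, which were 10 of the 16076 probes with a single symbol on the first array design and 12 of 26926 on the second. The designs name 14422 and 17471 genes in all. On the first design Fos had 2 probes and every other gene 1. On the second, Fosl2 had 3 probes, Fosb 2 and the others 1.

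RNA of whole tissue was hybridised on 2-colour arrays against a universal mouse reference RNA that was common to all arrays. The first design held 6 squamous cell carcinomas, 10 papillomas labelled high-risk, 9 papillomas labelled low-risk (1 of them on 2 arrays) and 6 normal skins. All tumours came from Sencar female mice initiated at 7 to 8 weeks of age and treated with DMBA and TPA, while the normal skins were untreated and adult, with no strain or sex in their labels. Strain and treatment therefore cannot be told apart from tumour in any comparison with normal skin. A further 10 DMBA/TPA papillomas from Sencar females, whose risk class is given as unknown, lay on the second design and entered no comparison. The labels give several tumours a common code, so some may come from 1 animal, and p-values measure only the spread between these samples.

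DMBA is a carcinogen that starts skin tumours and TPA is a phorbol ester that promotes them. TPA activates protein kinase C, and through MAP kinases it quickly switches on immediate-early genes, whose transcription needs no new protein. Jun and Fos family proteins pair to form AP-1, which binds the TPA response element. Jun, Fos and Fosb are classical immediate-early genes, Junb and Jund can oppose or replace Jun in the dimer, and Fosl1 and Fosl2, known as Fra-1 and Fra-2, lack the strong activation domain of Fos. Egr1 is a zinc finger factor and Atf3 a stress-induced member of the ATF/CREB family that can pair with Jun.

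The promoters of Jun and Fos are shown because these founding AP-1 partners are set against each other below. The sequences are from RefSeq (GRCm38.p6), 150 bases up to the transcript start, 5′ to 3′ on the gene's strand. Capitals mark TGACATCA, a variant of the AP-1 element, and TGACG, the core of the cAMP response element. The Jun stretch is chr4:95052223-95052372 on the minus strand and that of Fos chr12:85473740-85473889 on the plus strand.
Jun promoter: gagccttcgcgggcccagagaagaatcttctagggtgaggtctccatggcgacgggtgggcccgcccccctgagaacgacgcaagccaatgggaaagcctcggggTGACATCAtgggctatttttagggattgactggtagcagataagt
Fos promoter: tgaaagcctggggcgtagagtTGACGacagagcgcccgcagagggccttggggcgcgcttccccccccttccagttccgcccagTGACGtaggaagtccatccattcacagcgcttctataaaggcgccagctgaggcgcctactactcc
TGACATCA begins 45 bases upstream of the start of Jun, and TGACG begins 129 and 66 bases upstream of Fos. Windows of 300 bases, 250 before the start and 50 after it, were searched on both strands in 32851 promoters. TGACATCA was in 3.62% of them and TGACG in 20.8%. The AP-1 element TGAGTCA was in 5.2% and the CArG box, the serum response element's core, in 1.63%, and neither was in the windows of Jun, Fos, Fosb, Fosl2, Junb, Jund or Atf3. TGACG was also in the windows of Fosb, Junb and Atf3. These matches describe letters and say nothing of binding. Elements outside the windows, such as any farther upstream, were not searched, and the windows of Egr1 and Fosl1 are not covered here.

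Levels are log2 ratios of sample over reference, centred on each array's median, so a level of 1 is a ratio of 2 to the reference pool. The log base and the direction are likely rather than stated, and levels of different probes cannot be compared. The direction used puts the 10 tested keratinocyte markers above the reference on average in every labelled replicate. Their medians were 1.34 in carcinomas, 2.24 in high-risk papillomas, 2.24 in low-risk papillomas and 1.71 in normal skins. In the same direction fibroblast, macrophage and red cell markers had medians below the reference in every group. These ran from -0.38 to -0.83, from -0.35 to -1.185 and from -0.65 to -2.19. The labelled replicates fell into 5 sets, A to E, by the pattern of empty probes on their arrays. Sets B and E were pure, with 6 low-risk papillomas in B and 4 high-risk papillomas in E. In set A all but 1 of the 5 replicates were normal skins, and sets C and D mixed the groups over 7 and 9 replicates. Carcinoma 6 and normal skin 1 had nearly the same values (r = 0.984 over 16718 probes, median absolute difference 0.065), and on the 7 probes of these genes measured in both they differed by 0.03 to 0.11. Without this pair 6 of the 48 changes described below, those of 8 genes in 6 comparisons, had the opposite sign, 4 of them changes of Fosb.

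In comparisons between the 4 groups, 0 of the 8 tested genes passed limma's test at an adjusted p of 0.05. Junb was the gene not tested, with a value in only 2 of 6 normal skins. Over all 18888 tested probes limma called 1.16% between carcinomas and normal skins, 5.03% between high-risk papillomas and normal skins and 7.58% between low-risk papillomas and normal skins. Between tumour groups it called 0.0424% for carcinomas against high-risk papillomas, 1.12% for carcinomas against low-risk papillomas and 0.667% for high-risk against low-risk papillomas. At an unadjusted p under 0.05 the number of the 8 genes was 1 in carcinomas against normal skins, 0 in high-risk papillomas against normal skins, 1 in low-risk papillomas against normal skins, 0 in carcinomas against high-risk papillomas, 1 in carcinomas against low-risk papillomas and 1 in high-risk against low-risk papillomas. In the same order 11.3%, 19.7%, 23.4%, 10.5%, 16.1% and 17.3% of all tested probes had such a p. With 8 genes, a count of 0 is near what these background shares give and is not a result about the genes. The intervals bound the changes: the narrowest, Fos in high-risk against low-risk papillomas, ran from 0.794-fold to 1.4-fold, and the widest, Fosb in carcinomas against normal skins, from 0.47-fold to 2.2-fold (95%, unadjusted).

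**Figure D1:**
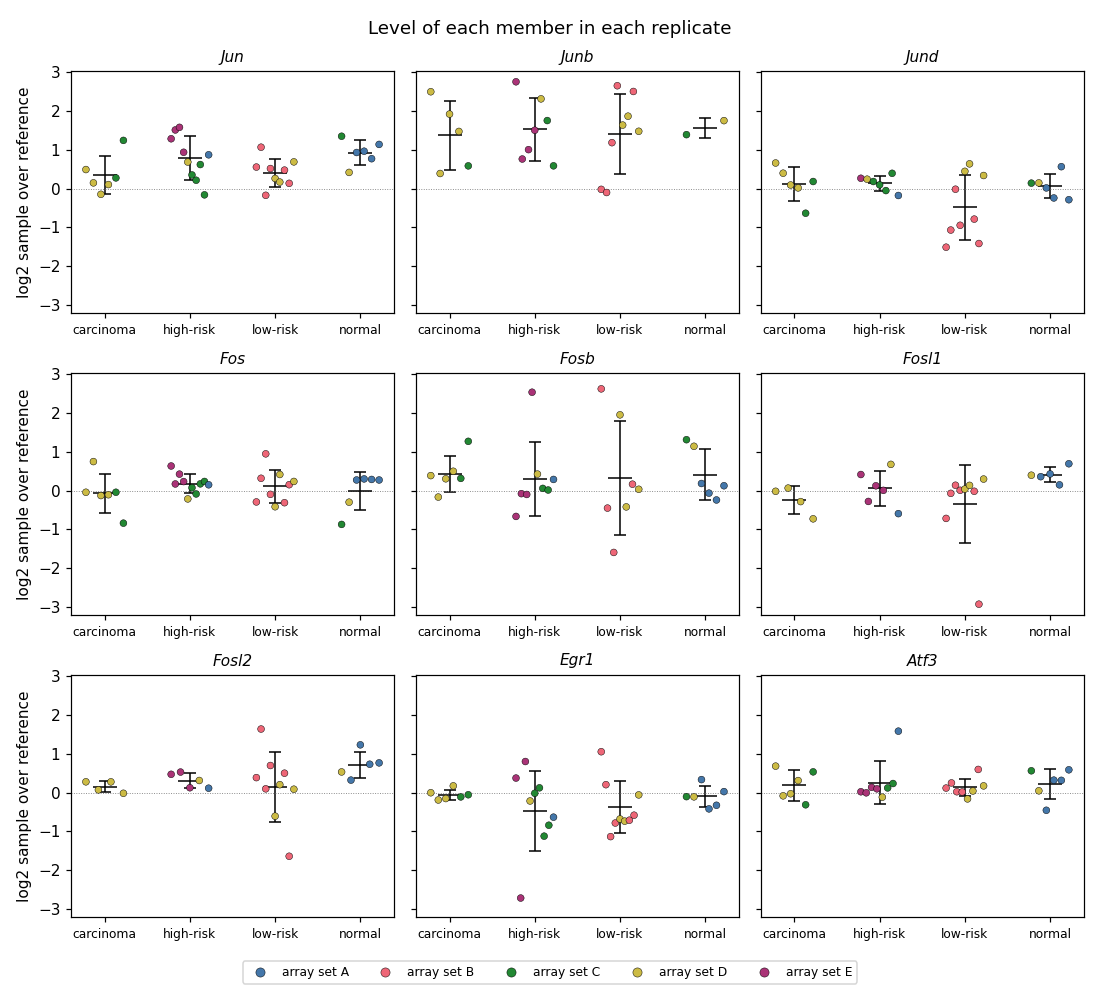
Level of each gene (log2 sample over reference) in every labelled replicate, with carcinomas, high-risk papillomas, low-risk papillomas and normal skins from left to right, points coloured by array set and bars showing the mean and SD. The groups overlap for most genes. Jund is low in the low-risk papillomas of set B other than low-risk papilloma 4, at -0.015, and Junb is above 0 in 20 of 22 replicates measured.

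Jun, the founding AP-1 subunit and a target of Jun N-terminal kinase, was above the reference in 28 of 31 replicates. Its level ran from -0.15 through a median of 0.21 to 1.25 in carcinomas, from -0.16 through 0.78 to 1.58 in high-risk papillomas, from -0.17 through 0.48 to 1.07 in low-risk papillomas and from 0.42 through 0.95 to 1.35 in normal skins. All groups overlapped, and the highest carcinoma was carcinoma 6, of the near-identical pair. The mean was 0.35 ± 0.48 in carcinomas (SD, n = 6), 0.79 ± 0.57 in high-risk papillomas (n = 10), 0.41 ± 0.36 in low-risk papillomas (n = 9) and 0.93 ± 0.32 in normal skins (n = 6). Jun differed by -0.58 ± 0.27 (SE) between carcinomas and normal skins, with limma's adjusted p = 0.412. Between low-risk papillomas and normal skins it differed by -0.52 ± 0.25, adjusted p = 0.204, and between carcinomas and high-risk papillomas by -0.44 ± 0.24, adjusted p = 0.528. High-risk papillomas stood 0.38 ± 0.22 above low-risk papillomas, adjusted p = 0.367. Without the near-identical pair these changes were -0.67, -0.43, -0.62 and 0.38, with adjusted p of 0.258, 0.308, 0.349 and 0.346. None of these passed. With quantile normalization the change between low-risk papillomas and normal skins was -0.85 and passed (adjusted p = 0.0438), and with array weights that between carcinomas and normal skins was -0.65 and passed (adjusted p = 0.0211). In bulk tissue, fewer cells of a type and less RNA per cell cannot be told apart.

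The array set took up more of the variance of Jun than the group did. The set took up 41.6% of the variance of Jun (adjusted R squared) and the group 14.5%, against medians of 21.7% and 6.42% over all tested probes. Set and group were fitted separately, so these shares overlap and are not parts of 1 whole. Apart from Jund, described below, the other tested genes had set shares below that median, from -13.9% for Egr1 to 10.1% for Fos. The 4 high-risk papillomas of set E had levels of 1.29, 1.51, 1.58 and 0.94, while the 4 of set C had 0.35, 0.22, 0.62 and -0.16. The high-risk papillomas of these 2 sets did not overlap, while set C also held normal skin 1 at 1.35 and carcinoma 6 at 1.25. With the set as a block the difference of high-risk from low-risk papillomas was -0.23 ± 0.35, that of carcinomas from high-risk papillomas 0.10 ± 0.26, and that of carcinomas from normal skins -0.33 ± 0.30, with adjusted p from 0.996 to 1. Set E held high-risk papillomas alone, so set and group cannot be told apart there.

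Junb, which can repress Jun-driven transcription and is itself induced by TPA, was measured in 22 of 31 replicates and was above the reference in 20. The 5 carcinomas had levels of 2.50, 0.39, 1.93, 1.48 and 0.59. High-risk papillomas ran from 0.59 through a median of 1.51 to 2.76 (n = 7) and low-risk papillomas from -0.10 through 1.56 to 2.66 (n = 8). The 2 normal skins measured had 1.39 and 1.76. The value of 1.39 is that of normal skin 1, of the near-identical pair, so normal skin 2 is the only other skin behind comparisons of Junb with normal skin. The values in normal skins lay inside the ranges of all tumour groups. When probes with 2 values a group were admitted, Junb differed by -0.20 ± 0.71 between carcinomas and normal skins, adjusted p = 0.989, and by 0.13 ± 0.44 between high-risk and low-risk papillomas, adjusted p = 0.907. The low value of -0.02 in low-risk papilloma 1 is the mean of its 2 arrays, which gave -1.41 with the tumour in Cy3 and 1.38 with the dyes swapped. In the same order these arrays also differed for Fosl1 (-1.415 and -0.022), Fosl2 (0.92 and -0.145), Atf3 (-0.43 and 0.67) and Jun (1.02 and 0.10). The other Fos probe gave -0.21 and -1.07. They lay closer for the kept Fos probe (-0.42 and -0.17), Jund (-1.71 and -1.31) and Egr1 (0.98 and 1.13). No other tumour was repeated.

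Jund, which is expressed without induction in most tissues and often restrains growth, was the gene with the smallest unadjusted p between tumour groups. Its level ran from -0.64 through a median of 0.14 to 0.66 in carcinomas (n = 6), from -0.18 through 0.18 to 0.40 in high-risk papillomas (n = 7), from -1.51 through -0.79 to 0.64 in low-risk papillomas (n = 9) and from -0.29 through 0.08 to 0.57 in normal skins (n = 6). Low-risk papillomas held the 5 lowest values of all and also a value near the top, so the groups overlapped. High-risk papillomas stood 0.62 ± 0.28 above low-risk papillomas (limma, p = 0.0355, adjusted p = 0.254). Carcinomas stood 0.60 ± 0.29 above low-risk papillomas, adjusted p = 0.309, and low-risk papillomas differed by -0.54 ± 0.29 from normal skins, adjusted p = 0.269. None passed, and the mean of carcinomas, 0.12 ± 0.44 (SD), lay close to that of high-risk papillomas, 0.14 ± 0.20.

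The low values of Jund were those of array set B. The 6 low-risk papillomas of set B had levels of -1.51, -1.07, -0.01, -0.95, -0.79 and -1.42, while the 3 of set D had 0.45, 0.64 and 0.34. These did not overlap. In set D the 4 carcinomas had 0.66, 0.40, 0.09 and 0.02, the high-risk papilloma 0.24 and the normal skin 0.15. The set took up 62.5% of the variance of Jund and the group 13.0%. With the set as a block, high-risk papillomas differed from low-risk papillomas by -0.11 ± 0.35 (adjusted p = 1.0), and carcinomas from low-risk papillomas by -0.26 ± 0.30 (adjusted p = 1.0), the opposite sign of the values above. Set B held no other group, so the part of its arrays and the part of its tumours in these low values cannot be told apart.

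**Figure D2:**
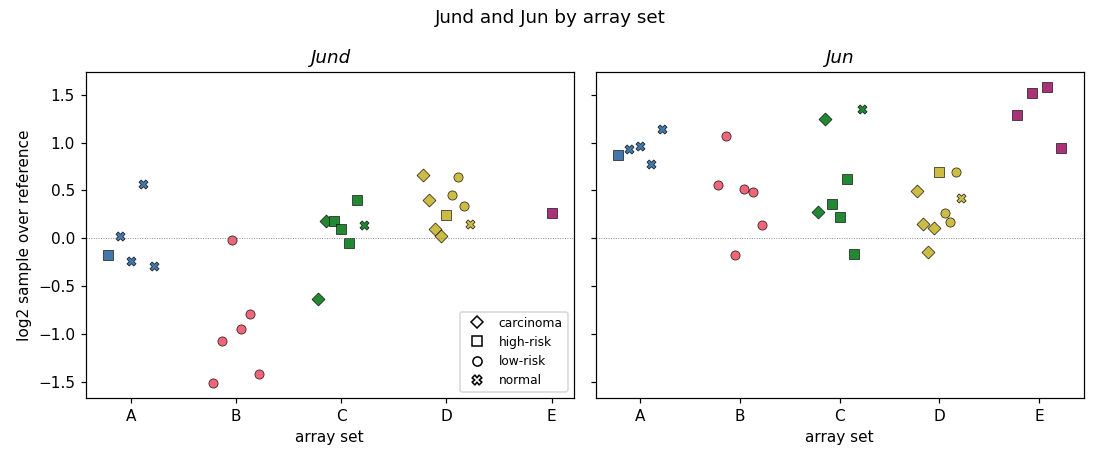
Level of Jund and of Jun (log2 sample over reference) in each labelled replicate by array set, A to E, with symbols for the group. Jund is low in set B, which holds only low-risk papillomas, at a mean of -0.96, and Jun is high in set E, which holds only high-risk papillomas, at a mean of 1.33.

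Fos, the partner of Jun that gives AP-1 its strongest activity, lay near the reference in all groups by the probe that was kept for the test. It ran from -0.84 through a median of -0.08 to 0.75 in carcinomas, from -0.21 through 0.17 to 0.64 in high-risk papillomas, from -0.42 through 0.15 to 0.95 in low-risk papillomas and from -0.87 through 0.27 to 0.30 in normal skins. The lowest carcinoma and the lowest normal skin were the near-identical pair. Without normal skin 1, 4 of the other normal skins lay between 0.27 and 0.30 and 1 at -0.30. Fos differed by -0.06 ± 0.25 between carcinomas and normal skins, adjusted p = 0.983, by 0.19 ± 0.22 between high-risk papillomas and normal skins, adjusted p = 0.707, and by 0.11 ± 0.23 between low-risk papillomas and normal skins, adjusted p = 0.816. Without the pair these 3 changes were -0.08, 0.01 and -0.06, with adjusted p of 0.961, 0.983 and 0.902. Carcinomas differed by -0.25 ± 0.22 from high-risk papillomas, adjusted p = 0.709, and without the pair by -0.09, adjusted p = 0.9.

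The other probe of Fos gave another picture of the same replicates. It ran from -0.15 through 0.46 to 1.45 in carcinomas, from -0.07 through 0.12 to 1.17 in high-risk papillomas, from -1.70 through -0.09 to 1.61 in low-risk papillomas and from 0.14 through 0.30 to 0.84 in normal skins. It was above 0 in all 6 normal skins, and normal skin 1, the lowest by the kept probe, was the highest by this one. Carcinomas differed by 0.39 ± 0.34 from low-risk papillomas, adjusted p = 0.615, and by 0.28 ± 0.33 from high-risk papillomas, adjusted p = 0.798, where the kept probe had the opposite sign. Over 31 replicates the levels of the 2 probes had Pearson's r of -0.01 and Spearman's rho of 0.10. Over the 93 genes with 2 probes measured in every replicate the median r was 0.09, with quartiles of -0.11 and 0.34. Of these genes 33.3% had an r below that of Fos, so low agreement between probes was not particular to Fos. The direction of Fos between these groups is therefore not settled by these arrays. Every other member had 1 probe on this design, so its agreement could not be checked. Genes of the lists below were also read on 1 probe each.

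Fosb, a Fos relative that also exists as the stable splice form DeltaFosB, had the widest spread. It ran from -0.17 through a median of 0.35 to 1.27 in carcinomas (n = 6), from -0.67 through 0.04 to 2.54 in high-risk papillomas (n = 8), from -1.60 through 0.03 to 2.63 in low-risk papillomas (n = 7) and from -0.24 through 0.15 to 1.31 in normal skins (n = 6). The papilloma groups held both the highest and the lowest values, and all groups overlapped. The highest, 2.63 in low-risk papilloma 1, came from its Cy3 array alone, as the swapped array had no value. Means were 0.44 ± 0.47 in carcinomas, 0.31 ± 0.96 in high-risk papillomas, 0.33 ± 1.47 in low-risk papillomas and 0.41 ± 0.65 in normal skins (SD). Fosb differed by 0.03 ± 0.54 between carcinomas and normal skins, adjusted p = 0.997, and by -0.02 ± 0.49 between high-risk and low-risk papillomas, adjusted p = 0.99. The 95% interval of that last difference, 0.494-fold to 1.97-fold, leaves room for a change near 2-fold either way.

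Fosl1, a target of AP-1 itself and often raised in invasive epithelial tumours, was lower in carcinomas than in normal skins without overlap, though the difference did not pass. The 4 carcinomas measured had levels of -0.02, 0.07, -0.28 and -0.73, and the 5 normal skins 0.40, 0.36, 0.43, 0.15 and 0.69. High-risk papillomas ran from -0.60 through 0.07 to 0.68 (n = 6) and low-risk papillomas from -2.93 through 0.01 to 0.30 (n = 9). The difference was -0.65 ± 0.46 between carcinomas and normal skins, limma's adjusted p = 0.685. Between low-risk papillomas and normal skins it was -0.75 ± 0.38, adjusted p = 0.233, with 1 low-risk papilloma at -2.93 and the next at -0.72. High-risk papillomas differed by -0.35 ± 0.41 from normal skins, adjusted p = 0.701, and by 0.40 ± 0.36 from low-risk papillomas, adjusted p = 0.576. With the arrays' database number range as a block, the change between low-risk papillomas and normal skins was -1.20 and passed (adjusted p = 0.042), and with array weights that between carcinomas and normal skins was -0.75 and passed (adjusted p = 0.0114). The carcinomas with a value were all in set D and the normal skins in set A except 1, in set D at 0.40.

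Fosl2, a factor of keratinocyte differentiation, was also lower in carcinomas than in normal skins without overlap and without passing. The 4 carcinomas had 0.28, 0.07, 0.28 and -0.02, and the 5 normal skins 0.53, 0.32, 1.23, 0.73 and 0.77. The 5 high-risk papillomas had 0.47, 0.53, 0.12, 0.31 and 0.11, and low-risk papillomas ran from -1.65 through 0.20 to 1.64 (n = 9). Carcinomas lay below all normal skins, and the papilloma groups overlapped with them. As for Fosl1, the carcinomas with a value were all in set D and the normal skins in set A except 1, in set D at 0.53. Fosl2 differed by -0.57 ± 0.41 between carcinomas and normal skins, adjusted p = 0.699, by -0.41 ± 0.38 between high-risk papillomas and normal skins, adjusted p = 0.612, and by -0.57 ± 0.34 between low-risk papillomas and normal skins, adjusted p = 0.329. With array weights the change between carcinomas and normal skins was -0.66 and passed (adjusted p = 0.0229). Fosl1 and Fosl2 were the 2 of 8 genes whose carcinomas all lay below the normal skins, which held for 2.33% of all tested probes. In both genes values were missing in 2 carcinomas and 1 normal skin, the near-identical pair among them. A probe measured in both of that pair can hardly separate carcinomas from normal skins. The 2.33% over all probes is therefore not a like background for Fosl1 and Fosl2, which were read on 4 carcinomas and 5 normal skins.

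**Figure D3:**
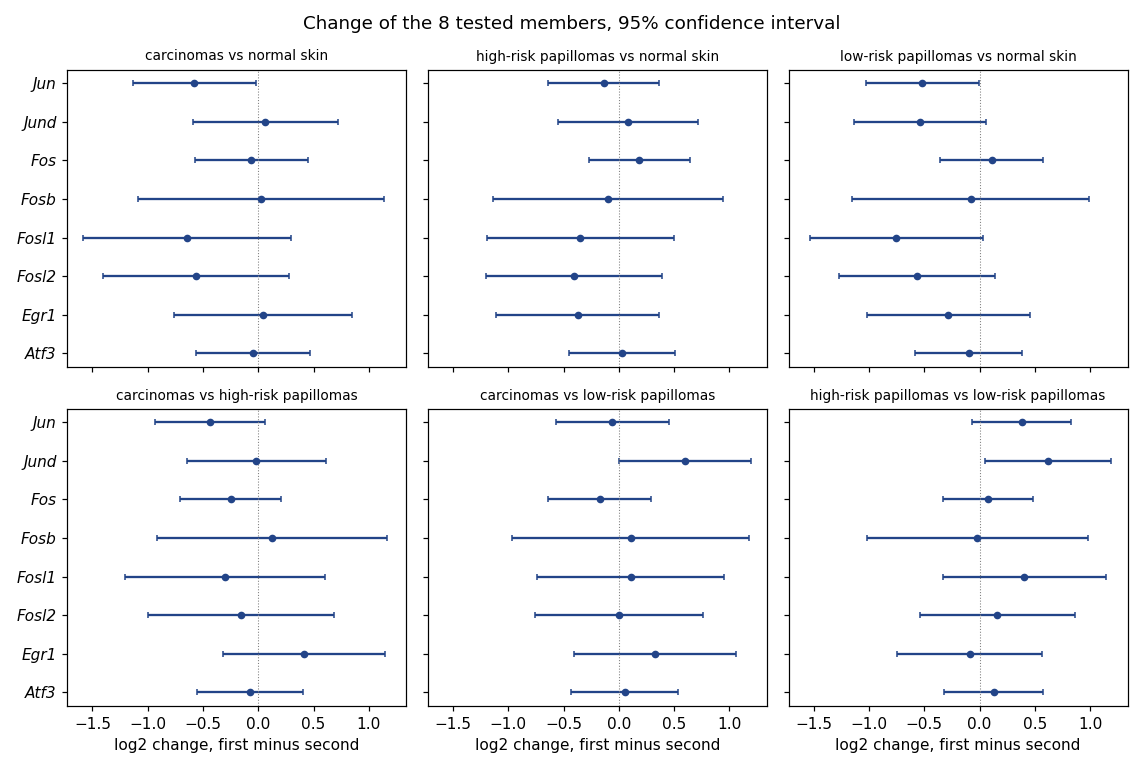
Fitted log2 change of the 8 tested genes in each of the 6 comparisons, the first named group minus the second, with the 95% confidence interval. Intervals leave 0 aside for Jun in carcinomas and in low-risk papillomas against normal skins and for Jund in high-risk papillomas and in carcinomas against low-risk papillomas, and none of these passed after adjustment.

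Egr1, a zinc finger factor induced with Fos by the same kinases, was below the reference in 22 of 30 replicates. It ran from -0.19 through -0.09 to 0.17 in carcinomas, from -2.72 through -0.22 to 0.80 in high-risk papillomas (n = 9), from -1.14 through -0.68 to 1.05 in low-risk papillomas and from -0.42 through -0.11 to 0.33 in normal skins. The papilloma groups spanned the other 2, whose SD was 0.13 in carcinomas and 0.27 in normal skins, against 1.04 in high-risk and 0.67 in low-risk papillomas. This difference in spread was not tested. The SD over all deposited values of an array also differed, running from 0.561 to 1.05 in carcinomas, 0.454 to 1.72 in high-risk papillomas, 1.04 to 1.95 in low-risk papillomas and 0.785 to 1.07 in normal skins, and its part in the spread of Egr1 was not tested. Egr1 differed by 0.04 ± 0.39 between carcinomas and normal skins, adjusted p = 0.993, by 0.42 ± 0.36 between carcinomas and high-risk papillomas, adjusted p = 0.696, and by 0.33 ± 0.36 between carcinomas and low-risk papillomas, adjusted p = 0.704. High-risk papillomas differed by -0.37 ± 0.36 from normal skins, adjusted p = 0.618.

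Atf3, a gene of the stress response, varied little. It ran from -0.32 through 0.14 to 0.68 in carcinomas, from -0.12 through 0.11 to 1.58 in high-risk papillomas (n = 8), from -0.16 through 0.08 to 0.60 in low-risk papillomas (n = 8) and from -0.46 through 0.32 to 0.59 in normal skins. All groups overlapped. Its changes were between -0.10 and 0.13 in the 6 comparisons, and the largest, high-risk against low-risk papillomas, was 0.13 ± 0.22 with limma's adjusted p = 0.792.

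As a group the 8 tested genes had a median change of -0.05 between carcinomas and normal skins, -0.12 between high-risk papillomas and normal skins and -0.40 between low-risk papillomas and normal skins. The medians of all tested probes in these comparisons lay between -0.02 and 0. Between low-risk papillomas and normal skins 7 of the 8 genes had a negative change, and their median size of change, 0.40, was close to the 0.39 of all probes. Between tumour groups the median of the 8 was -0.12 for carcinomas against high-risk papillomas, 0.08 for carcinomas against low-risk papillomas and 0.14 for high-risk against low-risk papillomas. The comparisons with normal skin share the same 6 skins.

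Covariation with Fos was then measured within groups, as the correlation of deviations from group means with each of the 7 other tested genes. Fosb moved against the kept Fos probe, with Pearson's r = -0.54 (permutation p = 0.00327, adjusted over the 7 relations 0.0229) and Spearman's rho = -0.73 (permutation p = 4e-05, adjusted 0.00028) over 27 replicates, both 2-sided. The other 6 genes had r from -0.20 for Atf3 to 0.15 for Jund, with adjusted permutation p of 0.717 or more. Low-risk papilloma 6, for example, had Fos at -0.42 and Fosb at 1.96, and carcinoma 2 had Fos at 0.75 and Fosb at -0.17. The replicates farthest in Fos were the near-identical pair, and without them r was -0.49, permutation p = 0.0137, adjusted 0.0962, and rho -0.70, adjusted 0.00126.

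With array-set means removed in place of group means, r was -0.56 for Fosb, and Jun also moved against Fos at r = -0.53 (adjusted permutation p = 0.00963 for both). For Jun rho was -0.42, adjusted permutation p = 0.0692. Its r was -0.90 over the 7 replicates of set C, which hold the near-identical pair, -0.47 over 6 in set B and -0.13 over 9 in set D. Without the pair, in a calculation chosen after seeing the data, r with set means removed was -0.25 for Jun (adjusted permutation p = 0.425) and -0.52 for Fosb (0.0451), while Jund had r = 0.49 (0.0451) and rho = 0.27 (0.568). The relation of Jun to Fos thus rested on that pair. With group means removed, r of Jun was -0.17, and 0.12 without the near-identical pair. In set D, the only set with 6 or more values of both Fos and Fosb, r between Fos and Fosb was -0.81 and rho -0.90 over 9 replicates. The other probe of Fos did not follow: its r with Fosb was 0.07 (adjusted permutation p = 0.737), while with Fosl1 it was 0.61 and with Fosl2 0.69 (adjusted permutation p = 0.0156 and 0.0143). For these last relations rho was 0.32 and 0.39, with adjusted permutation p of 0.232 and 0.222. The opposition of Fos and Fosb was thus seen with 1 of the 2 Fos probes of the first design. On the second design, with other probes, this relation was not tested. There unknown papilloma 1, the lowest in Fos at -1.17, had Fosb at -0.60 and -0.54 by its 2 probes. Unknown papilloma 4, the highest in Fos at 4.76, had Fosb at -0.27 and 0.09. Neither extreme of Fos had Fosb at the opposite extreme.

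**Figure D4:**
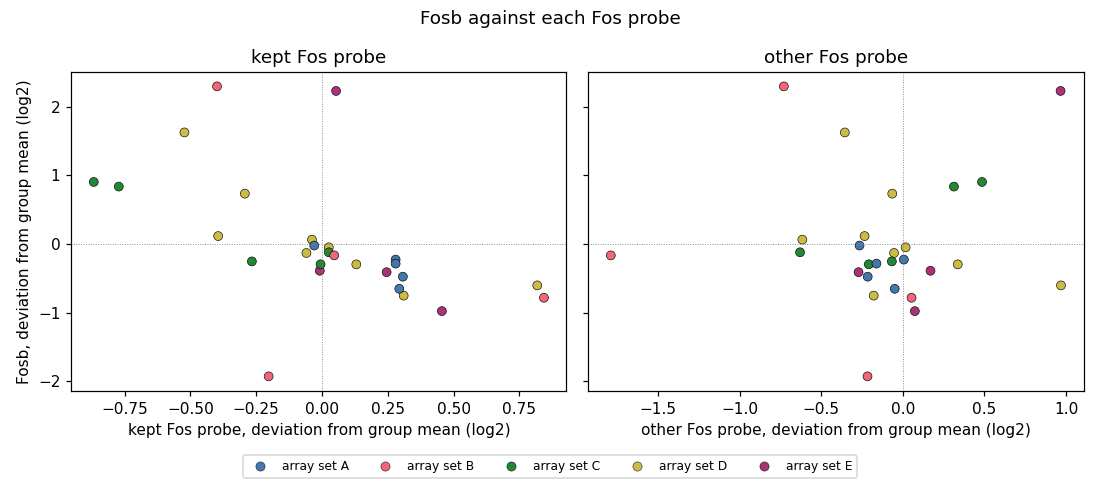
Deviation of Fosb from its group mean against that of the kept Fos probe (left) and of the other Fos probe (right), in log2 units, 1 point per labelled replicate, coloured by array set. The points fall to the right in the left panel (r = -0.54) and show no slope in the right panel (r = 0.07).

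Among all 28 pairs of the 8 genes, r of deviations ran from -0.54 to 0.62 with a median of 0.04, so the genes did not vary as a block. The highest pair was Fosl1 with Fosl2, at r = 0.62 and rho = 0.18 over 23 replicates, and low-risk papilloma 9 was the lowest replicate of both genes at -2.93 and -1.65. Fosl1 with Jund had r = 0.54 and rho = 0.49 over 21. Fosb with Egr1 had r = 0.47 and rho = 0.46 over 26. These are descriptions of replicates that share arrays and reference.

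The genes whose level over the labelled replicates was most like that of each member were found over at least 25 shared replicates. For Jun these were Lamtor2 (r = 0.78), Pxdc1 (r = 0.78) and Abcc1 (r = 0.74). For Jund they were Stk33 (r = 0.85), Hoxb5 (r = 0.81) and Zfp1 (r = 0.80). Fos was most like Rcbtb2 (r = 0.76), Rab11fip4os2 (r = 0.73) and Pdf (r = 0.70), and Fosb most like Cyp1b1 (r = 0.83), Phex (r = 0.74) and Nrg4 (r = 0.71). Egr1 was most like Slc16a10 (r = 0.82), Phtf1 (r = 0.77) and Gata6 (r = 0.75), and Atf3 most like St6galnac3 (r = 0.84), Trim21 (r = 0.79) and 4930428E07Rik (r = 0.77). No other member was among them. Fosl1 and Fosl2 had too few replicates.

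Genes around the AP-1 factors were followed in 4 lists. Like the members, these were chosen with earlier results of these data known. Their counts and medians beside all probes are therefore descriptions and not independent support. Between low-risk papillomas and normal skins, 3 of 28 tested other immediate-early genes rose and 1 fell, 1 of 24 partners and relatives rose and 1 fell, 2 of 23 upstream kinases and coactivators rose and 1 fell, and 4 of 25 AP-1 target genes rose. These are to be read against the 7.58% of all tested probes. Rhob, a small GTPase, was 2.49 ± 0.68 higher on the log2 scale (adjusted p = 0.0245), Ier3, a survival gene, 1.36 ± 0.36 higher (adjusted p = 0.0203) and Plk2, a polo-like kinase, 0.98 ± 0.31 higher (adjusted p = 0.0498). Srf, the serum response factor that drives Fos and Egr1, was lower at a mean of -0.25 ± 0.41 (SD, n = 8) in low-risk papillomas and 0.70 ± 0.45 (n = 6) in normal skins. That change of -0.95 ± 0.25 had an adjusted p of 0.0172.

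Among partners, Jdp2, a repressor that pairs with Jun, fell with a mean of -0.83 ± 0.43 (n = 9) in low-risk papillomas and 0.31 ± 0.27 (n = 3) in normal skins, a change of -1.14 ± 0.30 (adjusted p = 0.0197). Nfe2l2, the NRF2 factor of the oxidative stress response, rose by 1.68 ± 0.41 (adjusted p = 0.0111). Upstream, Elk3 rose by 1.70 ± 0.37 (adjusted p = 0.00816) and Elk1 fell with a change of -1.04 ± 0.28 (adjusted p = 0.0218), both ternary complex factors that join Srf at the Fos promoter. The kinase gene Rps6ka3 rose by 0.98 ± 0.28 (adjusted p = 0.0266).

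Of the AP-1 target genes Tgfb1, a growth-inhibitory cytokine, rose by 1.82 ± 0.44 (adjusted p = 0.0145) in low-risk papillomas against normal skins. Mmp3, the matrix protease stromelysin, had a mean of 1.40 ± 0.71 (SD, n = 9) in low-risk papillomas and -0.37 ± 0.78 (n = 6) in normal skins, a rise of 1.77 ± 0.38 (adjusted p = 0.00419). Hbegf, a ligand of the EGF receptor, rose by 1.73 ± 0.51 (adjusted p = 0.0322), and Plaur, the urokinase receptor, by 0.89 ± 0.24 (adjusted p = 0.0227). The list's median change was 0.35, against -0.02 for all probes.

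Between high-risk papillomas and normal skins 1 of 28 other immediate-early genes fell, 2 of 24 partners rose, 1 of 23 upstream genes rose and 1 fell, and 3 of 25 targets rose, beside 5.03% of all tested probes. Ccn2, the matricellular growth factor CTGF, had a mean of -1.24 ± 0.72 (n = 10) in high-risk papillomas and 0.04 ± 0.50 (n = 6) in normal skins, a change of -1.28 ± 0.32 (adjusted p = 0.0188). Nfe2l2 rose by 1.62 ± 0.40 (adjusted p = 0.0167) and Atf5 by 1.22 ± 0.34 (adjusted p = 0.0395). Elk3 rose by 2.39 ± 0.45 (adjusted p = 0.00429) and Elk1 changed by -1.12 ± 0.29 (adjusted p = 0.0258). Tgfb1 rose by 1.91 ± 0.50 (adjusted p = 0.0291), Mmp3 by 1.54 ± 0.37 (adjusted p = 0.0132) and Cxcl1, a neutrophil-attracting chemokine, by 1.26 ± 0.37 (adjusted p = 0.0419). The target list's median was 0.60.

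Between carcinomas and low-risk papillomas 1 of 24 partners rose and 1 of 23 upstream genes rose, beside 1.12% of all tested probes, and 0 of 28 other immediate-early genes and 0 of 25 targets passed. Jdp2 had a mean of 0.44 ± 0.42 (n = 6) in carcinomas and -0.83 ± 0.43 (n = 9) in low-risk papillomas, a rise of 1.27 ± 0.24 (adjusted p = 0.00912). Dusp4, a phosphatase that switches MAP kinases off, rose by 0.90 ± 0.22 (adjusted p = 0.0381). In the lists with no call the smallest p were those of Ccn2 (0.86 ± 0.34, adjusted p = 0.194) and Mt1, a metallothionein (0.90 ± 0.30, adjusted p = 0.121).

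In carcinomas against normal skins 0 genes of the 4 lists passed limma's adjusted test. The numbers at an unadjusted p under 0.05 were 5 of 28, 1 of 24, 4 of 23 and 9 of 25, in the order of lists above, beside 11.3% of all tested probes. The smallest p in each list were those of Srf (-0.72 ± 0.27, adjusted p = 0.219), Nfe2l2 (1.37 ± 0.45, adjusted p = 0.149), Elk3 (1.57 ± 0.45, adjusted p = 0.1) and Mmp3 (1.36 ± 0.41, adjusted p = 0.106). The target list's median was 0.51. In high-risk against low-risk papillomas 0 genes passed, with 5, 4, 6 and 2 at an unadjusted p under 0.05, beside 17.3% of all tested probes. The smallest p were those of Srf (0.66 ± 0.22, adjusted p = 0.124), Batf3 (0.83 ± 0.22, adjusted p = 0.0651), Map2k4 (-0.67 ± 0.25, adjusted p = 0.166) and Mt1 (0.97 ± 0.26, adjusted p = 0.0637). In carcinomas against high-risk papillomas 0 genes passed, with 4, 4, 3 and 3 at an unadjusted p under 0.05, beside 10.5% of all tested probes, led by Ccn2 (1.08 ± 0.32, adjusted p = 0.215), Atf5 (-1.26 ± 0.37, adjusted p = 0.215), Mapk14 (0.67 ± 0.23, adjusted p = 0.298) and Krt1 (-1.76 ± 0.56, adjusted p = 0.261).

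With the array set as a block 0 of these 23 calls remained. Sets B and E were pure, and low-risk papillomas shared only set D with the other groups. The block thus left few arrays on which to test these calls. Set D alone held 1 normal skin and 1 high-risk papilloma, so calls against normal skins could not be judged there. With that block Ccn2 in high-risk papillomas against normal skins changed by -1.38 ± 0.41 (adjusted p = 0.137), Elk3 by 2.1 ± 0.54 (adjusted p = 0.112), and Jdp2 in carcinomas against low-risk papillomas by 1.37 ± 0.51 (adjusted p = 0.583), while Hbegf, Rps6ka3 and Plk2 in low-risk papillomas against normal skins were at 0.04, 0.01 and -0.02. When 1 replicate was left out in turn, 6 of the 23 calls were kept each time they were tested. They were those of Elk3 and Jdp2 in both of their comparisons and those of Mmp3 and Nfe2l2 in low-risk papillomas against normal skins. Jdp2 was tested in 28 of 31 leave-outs. It had values in 3 normal skins, the fewest the filter allows, so leaving out any of these took it out of the test. Its call against normal skins was thus never tried without 1 of the skins behind it. Leaving out normal skin 3 or normal skin 6 ended 13 calls each, and normal skin 4 or 5 ended 10 each. Without the near-identical pair 19 of the 21 calls that could be tested remained. Those of Plk2 in low-risk papillomas against normal skins (1.02, adjusted p = 0.0708) and of Dusp4 (0.93, adjusted p = 0.0572) did not, and Jdp2 then had too few normal skins to enter.

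Some markers of other cell types also passed, and their counts are to be read against the share of all tested probes. That share was 7.58% in low-risk papillomas and 5.03% in high-risk papillomas, each against normal skins. Skeletal muscle markers differed from normal skin, with 2 of 7 lower in each papilloma group. Their mean level ran from -0.72 to 0.88 in high-risk papillomas, from -0.93 to 0.82 in low-risk papillomas and from -0.14 to 2.32 in normal skins. In low-risk papillomas against normal skins 3 of 8 mast cell markers and 2 of 4 red cell markers were higher, 2 of 8 adipocyte markers were higher and 2 lower, 1 of 8 T cell markers was higher and 2 lower, and 1 of 10 keratinocyte and 1 of 8 endothelial markers were lower. The mean level of the red cell markers ran from -1.78 to -0.39 in low-risk papillomas and from -2.84 to -0.82 in normal skins, and that of the mast cell markers from -0.77 to 1.05 in low-risk papillomas and from -0.44 to -0.23 in normal skins. In high-risk papillomas against normal skins 1 of 4 red cell and 1 of 8 T cell markers were higher, 1 of 10 keratinocyte markers was higher and 1 lower, and 1 of 10 fibroblast and 1 of 8 adipocyte markers were lower. In carcinomas against low-risk papillomas 1 of 4 red cell markers was higher, beside 1.12% of all tested probes. In carcinomas against normal skins 1 of 4 red cell markers was higher, beside 1.16%. There 1 of 10 keratinocyte and 1 of 8 adipocyte markers were lower. In high-risk against low-risk papillomas 1 of 4 red cell markers was higher and 1 of 8 T cell markers lower, beside 0.667%. None passed in carcinomas against high-risk papillomas. The part of these in the results was not tested.

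The 10 papillomas of unknown class, read on other probes, are given as values only. Junb was above the reference in 10 of 10, from 0.65 in unknown papilloma 7 through a median of 1.83 to 3.63 in unknown papilloma 4. Fos ran from -1.17 in unknown papilloma 1 through 0.97 to 4.76 in unknown papilloma 4, and was above 0 in 8. Jun ran from -3.07 in unknown papilloma 8 through 0.53 to 2.43 in unknown papilloma 4. Unknown papilloma 4 thus held the highest value of Jun, Junb and Fos. Its array also had the widest values of the 10, with an SD of 2.39 over all deposited values against 1.14 to 2.19 on the others, and the most empty probes, 28.6%. Its Jund was missing.

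Jund was below the reference in 8 of the 9 unknown papillomas measured, from -1.35 through -0.69 to 0.43. Egr1 ran from -1.54 through 0.14 to 1.84, Fosl1 from -0.79 through -0.02 to 1.58, and Atf3 from -0.38 through 0.16 to 0.74. The probes of Fosl2 numbered 1, 2 and 3 had medians of 0.71, 0.69 and 0.93, and probe 3 was above 0 in 10 of 10. They correlated at r = 0.68 for probes 1 and 2, 0.25 for probes 1 and 3 and 0.27 for probes 2 and 3 over the 10 papillomas. The probes of Fosb had medians of 0.05 and 0.04 and correlated at r = 0.43.

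**Figure D5:**
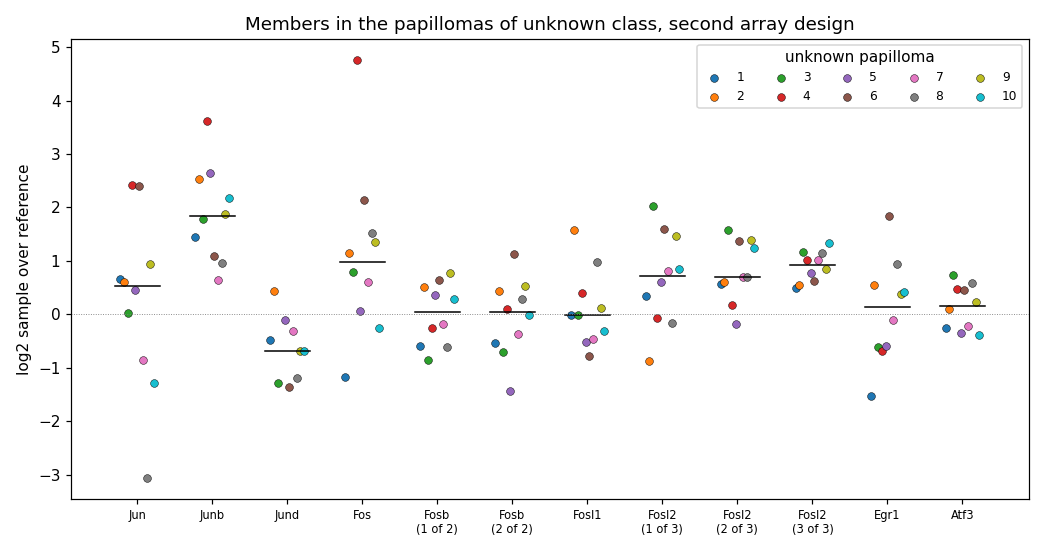
Level of each probe of the 9 genes (log2 sample over reference, second array design) in the 10 papillomas of unknown class, coloured by papilloma, with a line at the median. Junb and probe 3 of Fosl2 are above 0 in all 10, and Fos spreads from -1.17 to 4.76.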

How the data were processed

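RNA of whole skin or tumour and a universal mouse reference were labelled with Cy dyes by aminoallyl coupling, per the labels' protocols. The deposited values are log2 ratios per probe, made by the authors; their normalization, filters, log base and direction are not given in the sources used here, nor is the scanner signal behind them, so precision is limited by the number of arrays. The sign of all arrays except the dye-swapped one was changed and each array centred on its median. That array and another carry the same tumour's code and were averaged to 1 replicate. Probes were named from the platform annotation, with symbols updated through RefSeq. A probe entered the test with values in 3 or more replicates per group and in 70% of the 31, with 1 probe a symbol, the one with most values or, where equal as for the Fos probes, the first by probe identifier, which left 18888 probes. Of the 9 genes, 8 were tested.

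The 4 groups were fitted in 1 limma model (limma 3.58.1, R 4.3.3) with moderated variances, Benjamini-Hochberg adjustment over all tested probes and a threshold of 0.05. The fit was tested on simulated data. Correlations used 100000 permutations. Array sets came from complete-linkage clustering of the pattern of empty probes, with 5 sets chosen. All 9 genes are named; of the 4 gene lists, those past the threshold and otherwise the 1 with the smallest p; and the 3 genes most like each member. The members and lists were chosen with earlier results of these data known. Same-numbered replicates of different groups had a median r of -0.0244 over 37 pairs, so the numbers pair nothing. Alternatives were other scalings, filters, probe summaries, treatments of the swapped array, blocks and weights, and leaving out each replicate.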

Additional observations from a re-analysis of the deposited data

Results flagged for a closer look

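Single replicates far from the rest of their group were looked for in 39 combinations of probe and group, with Dixon's test at its 95% critical value; chance alone marks about 1 in 20, and 5 were found. In high-risk papilloma 4, Fosb stood at 2.54, with the next highest of the 8 high-risk papillomas at 0.426, and the other Fos probe stood at 1.17, with the next at 0.37. In low-risk papilloma 9, Fosl1 stood at -2.93, with the next lowest of 9 at -0.718. In high-risk papilloma 10, Atf3 stood at 1.58, with the next highest of 8 at 0.233. In normal skin 1, which is nearly identical to carcinoma 6, the other Fos probe stood at 0.838, with the next highest of 6 at 0.359.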

How the results depend on the processing

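In 279 of 282 fits over the 6 comparisons 0 of the tested genes was called. The exceptions were low-risk papillomas against normal skins with quantile normalization (1 gene, Jun at -0.85, adjusted p = 0.0438) and with the database number range as a block (1 gene, Fosl1 at -1.20, adjusted p = 0.042), and carcinomas against normal skins with array weights (3 genes, Jun at -0.65, Fosl1 at -0.75 and Fosl2 at -0.66, adjusted p = 0.0211, 0.0114 and 0.0229). With array weights the calls over all probes in carcinomas against normal skins also went to 3452, beside 219, and with the array set as a block to 14; over the 6 comparisons array weights gave the most calls, 373 to 4153, of 16 alternatives. The replicate block called 0 of 8 genes in each comparison and kept 14 of the 23 calls among pathway genes. The cause of these shifts was not tested.

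The median change of the 8 genes between high-risk papillomas and normal skins was -0.32 with quantile normalization, -0.25 with scale normalization, -0.41 with the set as a block and 0.023 over the 2 genes measured in every replicate. For carcinomas against normal skins it was -0.24 with the set block, -0.26 with the database number block and -0.32 over those 2 genes, for which carcinomas against high-risk papillomas gave -0.34. In set D alone, an alternative chosen after seeing the data, it was 0.084 for high-risk and -0.092 for low-risk papillomas against normal skins, over 9 genes. Leaving out a replicate ended no call of the 8 genes and made none.

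Of the 48 changes of the tested genes 14 kept their sign in every alternative and 34 turned in at least 1, Fosb in high-risk against low-risk papillomas most often, with its sign kept in 34 of 46. Among the changes followed one by one, the 3 of smallest p in each comparison and the pathway calls, signs turned in these cases, none past the threshold. With the set as a block: Jund in high-risk against low-risk papillomas (-0.11), carcinomas against low-risk papillomas (-0.26) and low-risk papillomas against normal skins (0.12), Jun in high-risk against low-risk papillomas (-0.23) and carcinomas against high-risk papillomas (0.10), and Plk2 in low-risk papillomas against normal skins (-0.024). In set D: Jund in the same 3 comparisons (-0.23, -0.18 and 0.33), Fos in carcinomas against low-risk (0.039) and high-risk papillomas (0.33), and Fosl1 in high-risk papillomas against normal skins (0.28). For Fos in carcinomas against low-risk and high-risk papillomas, the mean of both probes gave 0.11 and 0.015, and the other probe, also chosen after seeing the data, 0.39 and 0.28. The number of genes varying with Fos by Pearson's r was 1 of 7, and became 2 with array-set means removed, 2 with quantile normalization, 2 with the other Fos probe (r with Fosb 0.073), and 0 without normal skin 1 and carcinoma 6, which are also the 2 replicates farthest in Fos (0). With set means removed and without that pair, chosen after seeing the data, it was 2, Fosb and Jund. By Spearman's rho it was 1 in each of these, except 0 with the other Fos probe.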
